A study of Mus musculus with 4 samples.

Results

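Homeobox, T-box and GATA genes that set regional identity in the embryo were followed in primary mouse oligodendrocytes with and without the long noncoding RNA lncOL1. Members were taken by symbol, with no cut on expression: the Hox genes, the single-digit Pax, Lhx, Dlx, Irx, Otx, Emx, Gata and Meis genes, the sine oculis homeobox genes, the Tbx genes and the Nkx genes, leaving out Nkx2-2 and Nkx6-2, which act within the oligodendrocyte lineage. This gave 111 of the 23435 gene symbols used. The cells were oligodendrocyte precursors held for 1 day in T3, a thyroid hormone that starts differentiation. There were 2 control samples, whose genotype label names lncOL1+/+ and lncOL1+/- together without assigning either to a sample, and 2 knockout samples labelled lncOL1-/-, all of mixed background. No label states that samples of a group were separate animals or cultures, so the p-values reflect how far these 4 libraries spread, possibly for technical reasons alone.

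Patterning factors are DNA-binding proteins that divide the embryo into regions. The Hox genes lie in 4 clusters and are switched on along the hindbrain and spinal cord but not in the forebrain, whereas Emx, Otx, Dlx, Lhx2, Six3 and Nkx2-1 mark parts of the forebrain. Outside their own region many of these genes sit at CpG-rich start sites and are held silent by Polycomb complexes. Polycomb repressive complex 2 (PRC2), whose subunit Suz12 the series title pairs with lncOL1, methylates histone H3 there. The comparison addresses which genes change in oligodendrocytes that lack lncOL1, and among them these otherwise silent genes.

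The start sites of 3 members are shown, from transcribed to silent, to compare their CpG content. Pax6 was the highest member with a matched start whose upstream bases overlap no annotated untranslated region, Six3 had the single call among members in the authors' deposited comparison, and Hoxb8, listed at 0 in every library, had the median CpG number among the silent Hox genes with such a start. The 250 bases upstream of each start are printed 5′ to 3′ from RefSeq (GRCm38.p6), with every CpG in capitals. Pax6 is read from chr2:105668646-105668895, Six3 from chr17:85620584-85620833 and Hoxb8 from chr11:96281655-96281904, all on the plus strand.
Pax6: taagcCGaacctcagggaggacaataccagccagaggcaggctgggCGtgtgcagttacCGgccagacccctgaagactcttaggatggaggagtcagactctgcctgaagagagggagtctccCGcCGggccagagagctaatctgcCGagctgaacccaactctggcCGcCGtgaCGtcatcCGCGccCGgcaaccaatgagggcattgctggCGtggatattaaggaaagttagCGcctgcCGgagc
Six3: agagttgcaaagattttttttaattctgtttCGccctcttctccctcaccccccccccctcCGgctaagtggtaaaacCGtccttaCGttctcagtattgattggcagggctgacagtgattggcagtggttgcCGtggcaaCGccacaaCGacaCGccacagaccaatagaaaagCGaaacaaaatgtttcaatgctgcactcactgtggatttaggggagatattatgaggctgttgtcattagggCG
Hoxb8: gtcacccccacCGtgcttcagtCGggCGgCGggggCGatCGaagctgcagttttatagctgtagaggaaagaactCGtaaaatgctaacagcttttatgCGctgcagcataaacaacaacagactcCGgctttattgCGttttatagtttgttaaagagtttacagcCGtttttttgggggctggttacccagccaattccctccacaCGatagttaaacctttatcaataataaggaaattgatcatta
These runs hold 15 CpG in Pax6, 10 in Six3 and 12 in Hoxb8, while their RNA levels run from above 1 FPKM to 0. By the definition of a CpG-rich window given next, Pax6 and Six3 are rich and Hoxb8, with 42.3% G and C, is not.

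A RefSeq start site was matched for 73 of the 111 members, taking the window nearest to the gene's edge in the files and counting over 300 bases (250 before to 50 after the start). The 35 matched members listed at 0 had a median of 15 CpG (range 1 to 40). All 3934 matched genes of the files at 0 in every library had a median of 2. CpG-rich windows, those with at least 50% G and C and an observed to expected CpG ratio of at least 0.6, made up 42.9% of the silent members (15 of 35) and 4.47% of all silent genes. From a mean of 1 FPKM upwards the share was 6 of 7 matched members and 75.3% of all 8529. CpG letters describe these windows and say nothing of methylation or Polycomb binding, which were not measured.

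**Figure D1:**
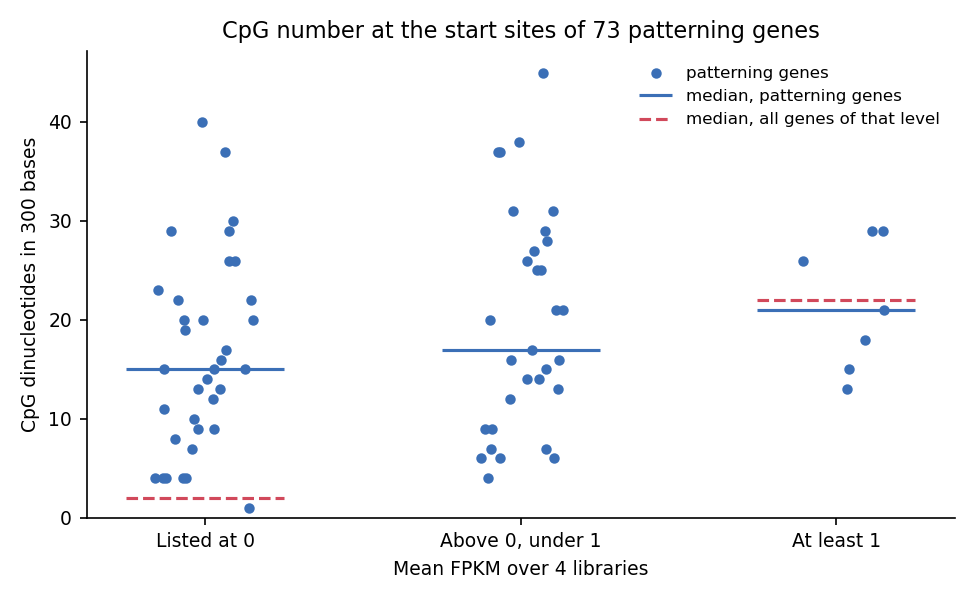
CpG dinucleotides in the 300 bases around the RefSeq start site (vertical axis, a number) of 73 patterning genes, grouped by mean FPKM over the 4 libraries. Each point is a gene, solid lines are medians of the patterning genes and dashed lines medians of all genes at 0 or at 1 FPKM and above. Patterning genes listed at 0 have a median of 15, against 2 for all genes listed at 0.

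lncOL1 itself (9630013A20Rik) was at 28.9 and 34.0 FPKM in control replicates 1 and 2 and at 5.54 and 5.06 in the knockout replicates, lower in both libraries labelled knockout. FPKM is the fragment count divided by transcript length and sequencing depth, so levels of different genes can be compared. The files hold no read counts, but low values fall on steps: the value of a gene times its length clustered at 0.0501, 0.0436, 0.0537 and 0.0452 FPKM for 1 kb in control replicates 1 and 2 and knockout replicates 1 and 2, with a further peak at 1.93 to 2.07 times that. Read as 1 fragment, these steps imply libraries of about 20, 22.9, 18.6 and 22.1 M fragments. Fragment numbers given here are estimates from them and cover counting error only.

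Most patterning genes were silent. Of the 111 members, 60 were listed at 0 in all 4 libraries (54.1%, against 25.8% of all symbols), 31 had a mean above 0 and under 0.1 FPKM, 11 lay between 0.1 and 1, 8 between 1 and 10, and 1 at 10 or more. At 10 FPKM or more stood 25.8% of all symbols and 0.901% of members. A listed 0 allows up to 3 fragments, which for the 60 silent members is 0.0201 to 0.184 FPKM depending on transcript length. In bulk RNA a low value can be a few cells with the gene on or many with a trace, and these cannot be told apart.

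The Hox clusters were nearly empty. Of 39 Hox genes in the files, 36 (92.3%) were listed at 0 in every library: 9 of 11 in Hoxa (chromosome 6), 10 of 10 in Hoxb (chromosome 11), 9 of 9 in Hoxc (chromosome 15) and 8 of 9 in Hoxd (chromosome 2). The remaining 3 were above 0 in a single library each. Hoxa13, a gene of the distal limb and hindgut, reached 0.200 FPKM in knockout replicate 2, about 5.79 fragments. Hoxa7 was at 0.0382 and Hoxd8 at 0.0526 FPKM in control replicate 1, about 1.53 and 1.85 fragments. Anterior genes of the clusters (Hoxa2, Hoxb1, Hoxd1) and posterior ones (Hoxb13, Hoxc13, Hoxd13) were alike at 0 in control and knockout. Of the noncoding RNAs of the clusters looked up by name, Hotair, Hoxa11os and Hoxd3os1 were in the files, listed at 0 in all libraries. Others that GENCODE M21 places there, such as Hoxaas2 and Hoxaas3, were not looked up.

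**Figure D2:**
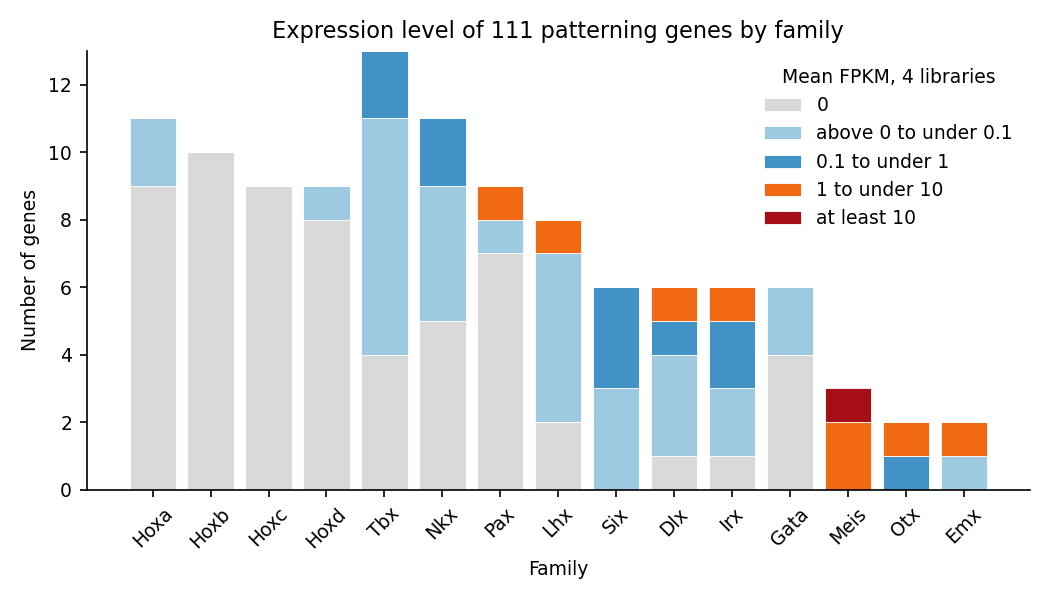
Number of patterning genes (vertical axis) in each family, coloured by mean FPKM over the 4 libraries. All 19 genes of Hoxb and Hoxc are listed at 0, whereas the sine oculis homeobox, Meis, Otx and Emx families have no gene at 0.

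Outside the Hox clusters, 24 of 72 members were at 0. Of 9 Pax genes 7 were at 0 (Pax2, Pax3, Pax4, Pax5, Pax7, Pax8 and Pax9), among them the midbrain and hindbrain gene Pax2 and the dorsal neural tube genes Pax3 and Pax7. Of 6 Gata genes, known from blood, heart and gut, 4 were at 0, and the highest, Gata2, was at 0.0424 and 0.0167 FPKM in the controls and 0 and 0.0185 in the knockouts. Of 13 T-box genes 4 were at 0, and of 11 Nkx genes 5, among them Nkx6-1, which marks ventral spinal cord progenitors. The highest T-box gene was Tbx6, a gene of paraxial mesoderm, at 0.0385 and 0.157 FPKM in the controls and 0.0414 and 0.254 in the knockouts, so its groups overlap.

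By region of the neural tube, the forebrain lists had the highest sums. Summed FPKM of 5 dorsal forebrain genes was 12.6 and 12.8 in the controls and 11.5 and 11.03 in the knockouts, and that of 10 ventral forebrain genes was 11.7 and 12.3 in the controls and 11.7 and 12.4 in the knockouts. The ventral sum rests largely on Meis2, at 7.59 to 8.23 FPKM, with Otx1 and Dlx2 next, and the other 7 genes averaged under 1 FPKM, Dlx6 and Lhx8 at 0. The 4 genes of the midbrain and its border summed to 0.0618 to 0.121 in the controls and 0.0772 to 0.169 in the knockouts. The 8 spinal cord and hindbrain genes other than Hox summed to 0.0816 to 0.116 in control and 0.122 to 0.195 in knockout. The 15 genes of tissues outside the neural tube summed to 0.189 to 0.212 and 0.3003 to 0.304. Such low sums rest on few fragments, and different genes made them up in each library. Pax1 gave 0.190 FPKM in knockout replicate 1 and 0.0545 in replicate 2. Of the 15 genes 1 was higher and 0 were lower in both knockout libraries, beside 15% and 8.83% of all genes above 0 and under 0.1 FPKM. The lists were drawn up from textbook regions, and Meis2, Otx1, Lhx2 and Pax6 are also active elsewhere in the brain. Otx1 is not particular to the ventral forebrain, so the forebrain sums do not compare dorsal with ventral identity.

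The 9 members that averaged at least 1 FPKM were tested for knockout minus control on the log2(FPKM + 1) scale, which understates changes of low values, with limma over 11361 genes. None was called at an adjusted p under 0.05, where 1.31% of all tested genes were. On simulated data the same fit called 6% of log2 differences of 0.5. There each gene was given the mean variance of genes of like level. The share may not hold for members that spread less or more, and the SE of the 9 ran from 0.069 (Meis2) to 0.132 (Irx1). It therefore sets no limit on the size of change that could be missed in a given member. At an unadjusted p under 0.05, 2 were higher (Meis3 and Irx1) and 2 lower (Meis1 and Lhx2), and over all genes 7.13% were higher and 6.58% lower. The median difference of the 9 was -0.15, beside 0.005 over all tested genes, with 2 members positive and 7 negative. Control and knockout values did not overlap for 2 higher and 6 lower members, where the shares of all genes were 22.6% and 20.7%.

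The Meis genes encode TALE homeodomain proteins, DNA-binding partners of Hox and Pbx proteins, and all 3 were transcribed while nearly all Hox genes were at 0. Meis3 (chromosome 7, 16175325 to 16186503, plus strand) was the highest member, at 19.8 and 18.6 FPKM in the controls and 21.8 and 22.7 in the knockouts. It made up 35.9% to 40.6% of the members' summed FPKM in the 4 libraries. Both knockout values lay above both control values, with means of 19.2 ± 0.835 and 22.2 ± 0.670 FPKM (SD, n = 2 each) and a log2 difference of 0.20 (SE 0.072, limma adjusted p = 0.277). Meis1 (chromosome 11) went the other way, at 4.76 and 5.02 FPKM in the controls and 4.16 and 4.002 in the knockouts, a log2 difference of -0.21 (SE 0.078, limma adjusted p = 0.297). Meis2 (chromosome 2), known from the developing striatum, was at 8.19 and 8.23 in the controls and 7.69 and 7.59 in the knockouts (log2 difference -0.09, limma adjusted p = 0.654). Meis1 and Meis2 were each lower in both knockout libraries than in both controls, yet none of the 3 genes passed the test.

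Of the dorsal forebrain genes, Lhx2, Emx2 and Pax6 averaged at least 1 FPKM. Lhx2, a LIM-homeodomain gene that specifies cortex, was at 7.15 and 7.59 FPKM in the controls and 6.43 and 6.29 in the knockouts, with no overlap between groups (log2 difference -0.19, SE 0.074, limma adjusted p = 0.337). Emx2, which patterns the caudal cortex, was at 3.802 and 3.23 in the controls and 3.49 and 3.20 in the knockouts (log2 difference -0.05, limma adjusted p = 0.886), and its groups overlap. Pax6, a paired-domain gene of cortical and eye progenitors, was at 1.67 and 1.92 in the controls and 1.51 and 1.45 in the knockouts (log2 difference -0.17, SE 0.101, limma adjusted p = 0.535). Emx1, the other Emx gene, was listed at 0 in both controls and at 0.0736 and 0.0602 FPKM in knockout, about 2 fragments in each. No fold is given for it.

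Among the remaining tested members, Otx1 and Dlx2 had lower knockout values and Irx1 higher ones. Otx1, of the anterior brain, was at 1.49 and 1.92 FPKM in the controls and 1.28 and 1.48 in the knockouts (log2 difference -0.18, limma adjusted p = 0.595), which became -0.065 when control replicate 2 was left out and -0.30 when control replicate 1 was. Dlx2, a gene of ventral forebrain progenitors of inhibitory neurons, was at 1.23 and 1.16 in the controls and 1.004 and 0.948 in the knockouts (log2 difference -0.15, limma adjusted p = 0.610). Irx1, an Iroquois homeobox gene, was at 1.60 and 1.12 in the controls and 1.77 and 2.11 in the knockouts (log2 difference 0.32, SE 0.132, limma adjusted p = 0.356), with 0.18 without control replicate 2 and 0.47 without control replicate 1. In level, Meis3, Meis2, Lhx2, Meis1 and Emx2 followed each other without overlap between their ranges over the 4 libraries (Lhx2 at most 7.587 and Meis2 at least 7.593), whereas the ranges of Irx1, Pax6 and Otx1 overlap, as do those of Irx1 and Dlx2.

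**Figure D3:**
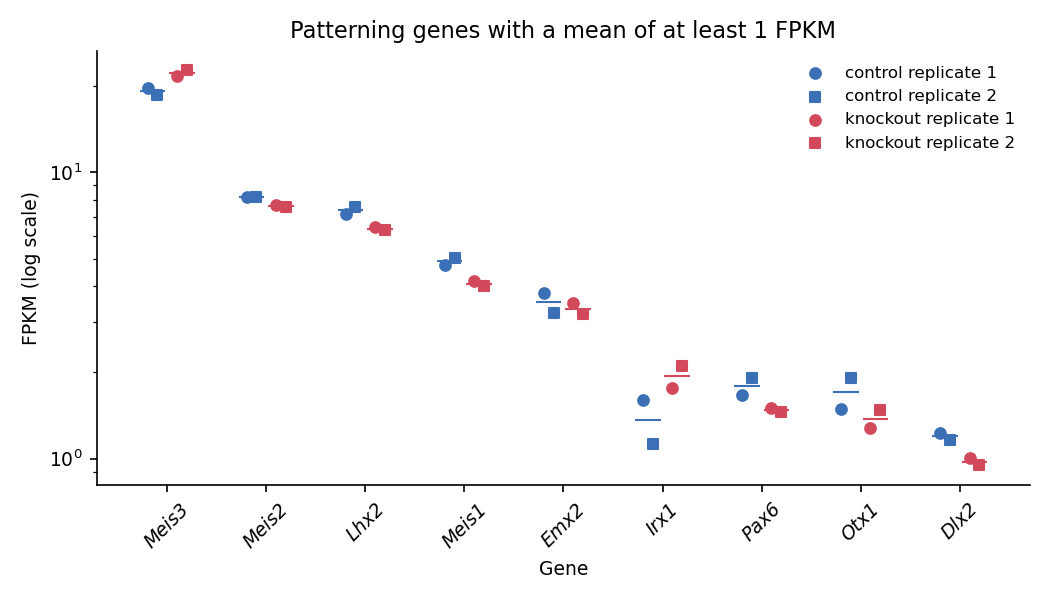
FPKM (vertical axis, log scale) in each library, for the 9 patterning genes averaging at least 1 FPKM. Points are libraries and short lines group means. Meis3 and Irx1 are higher in both knockout libraries, 6 genes are lower in both, and Emx2 overlaps.

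The 11 members between 0.1 and 1 FPKM all had a higher mean in the knockout, where 57.2% of the 2798 genes at this level did. Their groups did not overlap for 7 higher and 0 lower members, and for 27.1% and 16.6% of all genes at this level. Fitted by limma with a minimum mean of 0.1 FPKM (14159 genes), none of the 20 members then tested was called, beside 0.911% of all genes, and the median difference of the 20 was 0.05 (all genes 0.007). At an unadjusted p under 0.05, 5 were higher and 1 was lower, beside 7.52% and 6.24% of all genes.

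Nkx2-1, the homeobox gene of the medial ganglionic eminence and hypothalamus, had the lowest p among them. It was at 0.296 and 0.262 FPKM in the controls and 0.715 and 0.801 in the knockouts, about 16.6 and 16.9 fragments against 37.4 and 49.8. The groups stand well apart, with means of 0.279 ± 0.0240 and 0.758 ± 0.0606 (SD, n = 2 each), 2.72 times as high in the knockout. The log2 difference was 0.46 (SE 0.078, limma adjusted p = 0.0756), which misses the threshold. With no filter the lowest limma adjusted p of any member was 0.0873. Pooled values in the authors' deposited table were 0.190 FPKM for control and 0.497 for knockout (q = 0.438). Both lie below the sample means given above, so the pooled and sample values of this gene are not on the same scale. The reason was not tested.

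Six3, a homeobox gene of the anterior forebrain and eye field, lay higher still. Its values were 0.340 and 0.564 FPKM in the controls and 0.820 and 1.36 in the knockouts, about 25 and 47.6 fragments against 56.2 and 111. The knockout mean, 1.09 ± 0.381, was 2.41 times the control mean, 0.452 ± 0.158 (SD, n = 2 each), but the libraries of each group also differ from each other, and the log2 difference of 0.52 (SE 0.146) had a limma adjusted p = 0.205. In the authors' deposited table Six3 was at pooled values of 0.329 and 0.756 FPKM, also below its sample means, with q = 0.0194. It was the 1 member under q = 0.05 among 12 tested there, where 5.78% of all genes tested were.

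The noncoding RNA next to Six3 was higher as well. Six3os1, transcribed from the opposite strand, was at 1.14 and 1.07 FPKM in the controls and 2.80 and 2.46 in the knockouts, and it rose by the limma test (log2 difference 0.79, SE 0.101, adjusted p = 0.0213). Its q in the authors' deposited table was 0.00429. The call was lost with each library left out in turn (limma adjusted p 0.0823 to 0.132) and with no filter (limma adjusted p = 0.0855), and over all alternatives run the limma adjusted p lay between 0.00767 and 0.132. The log2 difference itself was 0.72 to 0.85 with each library left out and 0.79 with no filter. In the files Six3 spans 85620834 to 85626191 and Six3os1 85601932 to 85618396 of chromosome 17 (mm10), 2437 bases apart. GENCODE M21 draws Six3 longer, from 85613608, over part of Six3os1. Whether counting used strand is not stated in the sources used here, so reads from the overlap cannot be assigned to either gene.

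Irx2, Six4 and Six5 were also higher in both knockout libraries. Irx2, which lies on chromosome 13 beside Irx1, was at 0.394 and 0.417 FPKM in the controls and 1.09 and 0.696 in the knockouts (2.20 times, log2 difference 0.42, limma adjusted p = 0.189). Six5 was at 0.218 and 0.227 in the controls and 0.391 and 0.362 in the knockouts, and Six4 at 0.112 and 0.107 against 0.254 and 0.154. Tbx2, a T-box repressor, was at 0.0503 and 0.0938 against 0.158 and 0.129, and Dlx1, the neighbour of Dlx2, at 0.0954 and 0.149 against 0.1497 and 0.157. All 5 of these genes have both knockout values above both control values, and none was called. In Nkx3-2, Tbx6, Irx3 and Otx2 the groups overlap. Nkx3-2, a gene of sclerotome and cartilage, was at 0.272 and 0.287 in the controls and 0.269 and 0.783 in the knockouts, so its higher mean comes from knockout replicate 2.

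**Figure D4:**
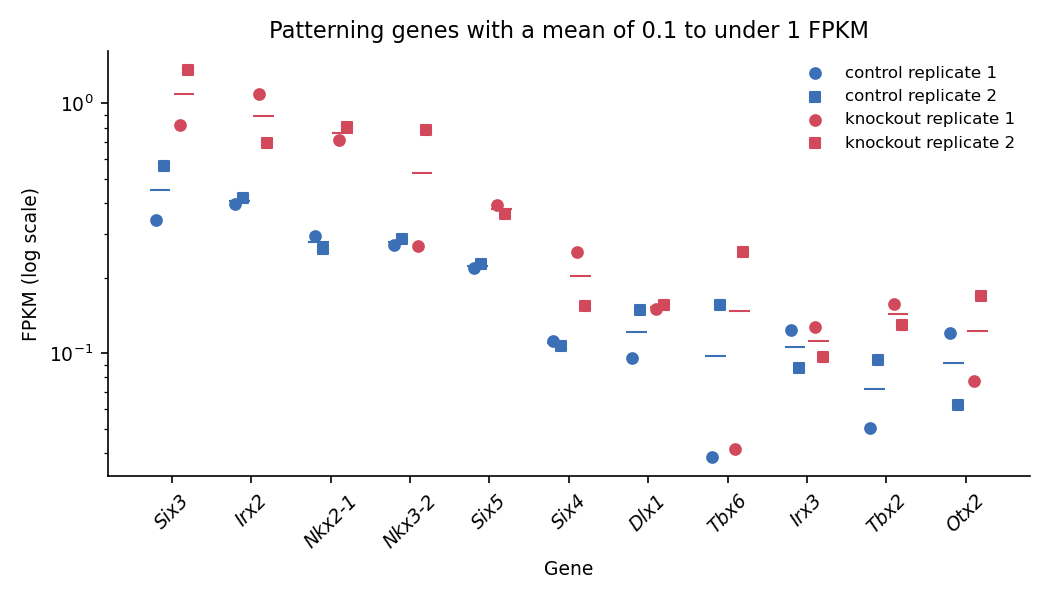
FPKM (vertical axis, log scale) of the 11 patterning genes with a mean of 0.1 to under 1 FPKM in each library, with group means as short lines. In Six3, Irx2, Nkx2-1, Six5, Six4, Dlx1 and Tbx2 both knockout points lie above both control points, and no gene shows the reverse.

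The cells carried their lineage markers: Olig1, Olig2, Sox10 and Nkx2-2 summed to 1312 to 1331 FPKM in the controls and 1343 to 1531 in the knockouts. Marker lists of other cells differed in direction. Of 12 microglia markers, 10 were higher in both knockout libraries, with sums of 10.7 to 11.7 in the controls and 24.3 to 28.2 in the knockouts, and 3 of 5 tested (Tyrobp, Fcrls and Laptm5) were called higher by limma. Pericyte and smooth muscle markers summed to 8.52 to 9.43 and 18.05 to 18.13, nearly all of it Tagln and Acta2, both called higher by limma, while Kcnj8 was at 0 throughout and Rgs5 under 0.14. Pdgfrb, a receptor of pericytes, went the other way, at 0.290 and 0.216 FPKM in the controls and 0.195 and 0.0849 in the knockouts. The sum of 8 inhibitory neuron markers, cells that descend from Nkx2-1 and Dlx progenitors, was 2.68 to 3.09 in the controls and 2.27 to 2.72 in the knockouts, with 0 of 8 higher and 2 lower in both knockout libraries. The lower ones were Reln, at 1.54 and 1.54 FPKM in the controls and 1.03 and 1.06 in the knockouts, and Gad1, at 0.162 and 0.164 against 0.0172 and 0.126. Of 8 astrocyte markers 1 was higher and 3 lower in both knockout libraries (sums 546.2 to 577.5 and 520.8 to 540.9), of 8 neuronal markers 2 and 1 (119.7 to 127.0 and 135.4 to 135.7). The neuronal sum was nearly all Map2, at 89.1 and 97.0 FPKM in the controls and 106.1 and 104.6 in the knockouts, and Tubb3, at 27.1 to 28.2. Rbfox3, Syt1, Stmn2, Nefl and Slc17a7 each averaged under 1 FPKM. Of 8 fibroblast and meninges markers 2 were higher and 5 lower (Col1a1, Col1a2, Dcn, Lum and Pdgfra, the last also a precursor marker), with sums of 27.03 to 27.45 and 23.4 to 25.5. Endothelial markers (1 of 6 higher, 0 lower) summed to 0.830 to 0.834 and 0.871 to 1.02, and neural stem cell markers (1 of 7 higher, 2 lower, Pax6 among the latter) to 1794 to 2005 and 1707 to 1878. Over all genes at 1 FPKM or more, 22.6% were higher and 20.7% lower without overlap. Many of these markers averaged less. The shares were 27.1% and 16.6% of all genes from 0.1 to under 1 FPKM, and 15% and 8.83% of those above 0 and under 0.1. Of 8 mature oligodendrocyte markers 6 were lower in both knockout libraries and 1 was higher (sums 8537 to 8896 and 6557 to 6796). Mbp, the 1 of the 8 called, was lower, at 2683 and 2655 FPKM in the controls and 1501 and 1520 in the knockouts (limma adjusted p = 0.00504). The higher one was Mog, at 21.5 and 23.0 against 27.1 and 23.7. Of 6 precursor markers 3 were higher and 1 lower (536.6 to 538.7 and 584.4 to 586.8), and 0 were called. The part of the microglia and contractile genes, and of the shift in oligodendrocyte markers, in the values of the low members was not tested.

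At the lowest levels, 31 members had a mean above 0 and under 0.1 FPKM. The knockout mean was higher in 17 of them, beside 55.2% of the 3238 genes at this level, which is near that share. Both knockout libraries were higher in 5 (Emx1, Lhx1, Lhx3, Tbx5 and Tbx21) and lower in 1 (Lhx5), beside 15% and 8.83% of those genes. Lhx3, a LIM gene of motor neurons and the pituitary, was at 0 in both controls and at 0.105 and 0.0301 in the knockouts, about 4.33 and 1.47 fragments. Tbx21, a T-box gene of T cells and natural killer cells, was at 0.0557 and 0 in the controls and 0.0883 and 0.168 in the knockouts. With no filter, 51 members entered a limma fit of 17397 genes and 0 were called, beside 0.023% of all genes, while an unadjusted p under 0.05 was found for 7 higher and 0 lower members, beside 6.95% and 5.48%. The remaining 25 genes at this level overlapped between groups or were above 0 in a single library. Pax1, of the sclerotome, was at 0.0581 and 0.0741 FPKM in the controls and 0.190 and 0.0545 in the knockouts. Nkx2-4, close kin of Nkx2-1, was at 0.141 FPKM in knockout replicate 2 and listed at 0 in the other libraries. Lhx6, which acts after Nkx2-1 in cortical interneurons, was at 0.0360 in control replicate 1 and at 0 elsewhere, and Lhx8 at 0 throughout. The number of members above 0 was 35 in both control libraries, 32 in knockout replicate 1 and 43 in knockout replicate 2.

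**Figure D5:**
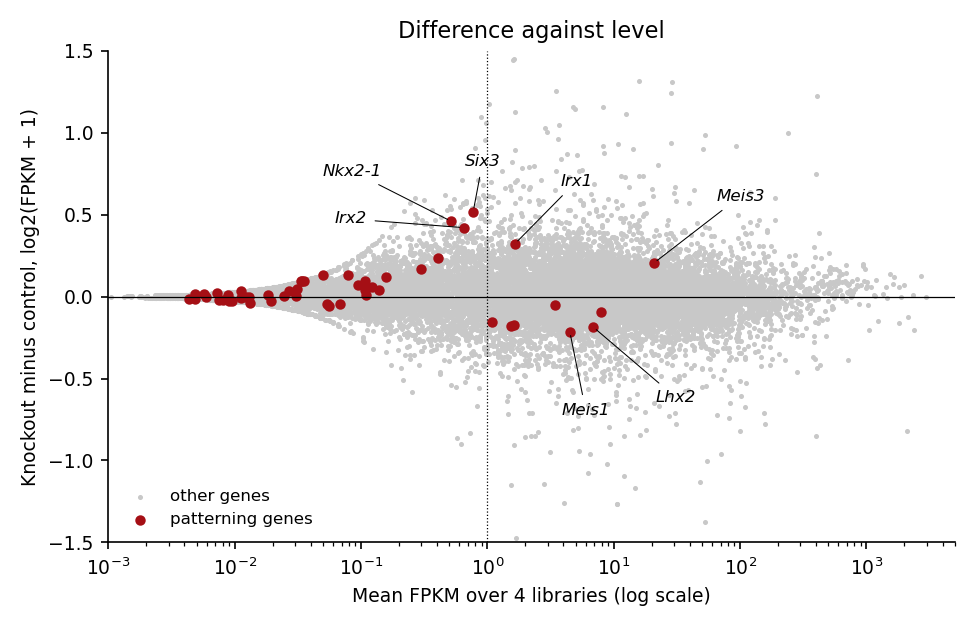
Knockout minus control on the log2(FPKM + 1) scale (vertical axis) against mean FPKM (log axis) for every gene above 0. Red points are patterning genes, grey points other genes, and the dotted line is 1 FPKM. Six3, Nkx2-1 and Irx2 are the highest red points at 0.52, 0.46 and 0.42, and 74 other genes lie outside the axes.

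Further antisense partners were checked. The search took member names with an antisense suffix and a few named Hox noncoding RNAs. Of 13 symbols found in this way 8 were at 0. Emx2os, which overlaps Emx2 on the opposite strand in GENCODE M21, was at 0.420 and 0.514 FPKM in the controls and 0.272 and 0.351 in the knockouts. It was lower in both knockout libraries but not called (limma adjusted p = 0.473 at the 0.1 FPKM minimum). Of all genes from 0.1 to under 1 FPKM, 16.6% were lower without overlap. Emx2 itself overlapped between groups. Dlx1as was at 0.178 and 0.126 against 0.169 and 0.136. Dlx6os1 was at 0.0332 and 0.0102 in the controls and 0.0484 and 0.0491 in the knockouts, higher in both, and Lhx1os at 0.120 and 0 against 0 and 0.304, with overlap. Among all genes above 0 and under 0.1 FPKM, the level of Dlx6os1, 15% were higher without overlap. In GENCODE M21, 9 of the 20 members with a mean of at least 0.1 FPKM overlap a gene on the opposite strand.

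Cofactors and chromatin regulators of these genes were transcribed and none was called. Of 6 further TALE genes of the Pbx and Pknox families all were tested, and 1 was higher at an unadjusted limma p under 0.05. Pknox2, a relative of the Meis genes, was at 10.7 and 11.7 FPKM in the controls and 14.8 and 15.4 in the knockouts (log2 difference 0.40, limma adjusted p = 0.0679). Of 10 tested PRC2 genes 0 were called and 0 had an unadjusted p under 0.05 by limma. Suz12 was at 9.52 and 11.1 FPKM in the controls and 11.2 and 10.4 in the knockouts (limma adjusted p = 0.857), and Ezh2, the methyltransferase, at 28.2 and 27.1 against 26.9 and 22.8 (limma adjusted p = 0.542). Of 10 tested PRC1 genes 0 were called, with 2 higher and 1 lower at that level, and of 7 trithorax and H3K27 demethylase genes 0, with 0 higher and 1 lower. Over all tested genes 1.31% were called, and 7.13% were higher and 6.58% lower at an unadjusted limma p under 0.05. The excluded lineage genes Nkx2-2, at 101.6 and 98.8 FPKM in the controls and 128.0 and 148.6 in the knockouts (limma adjusted p = 0.0746), and Nkx6-2, at 60.7 to 68.4 over the 4 libraries, stood above every member.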

How the data were processed

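Primary mouse oligodendrocyte RNA was extracted with Trizol, and libraries came from an Illumina TruSeq kit (per the labels' protocols). CASAVA, TopHat, Cufflinks, Cuffdiff and the build mm10 appear in the submitters' processing notes with no version, option or role. The authors deposited 1 table of gene FPKM per sample and 1 table of pooled FPKM, p-values and q-values per gene, per the file headers, and the latter are quoted as the authors'.

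Rows of the same symbol were summed (258 symbols, no member among them) and 9 symbols with a failed status were left out. log2(FPKM + 1) was fitted in limma 3.58.1 (R 4.3.3) with an expression trend for genes averaging at least 1 FPKM, for knockout minus control, all 4 libraries and no covariate, with Benjamini-Hochberg adjustment over all genes. The fit was tested on simulated data for the 11361 genes at 1 FPKM or more, each given the mean variance of genes of like level. It called 6% of 50 simulated log2 differences of 0.5, 43% of 100 of size 1 and 96% of 50 of size 2. Genes of low level were read from fits with a minimum of 0.1 FPKM and with none. Transcript lengths came from GENCODE M21. Locus starts were moved by 1 base to count from 1.

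Members, lists and the naming rule were chosen with earlier results of these data known. The rule named every member at 1 FPKM or more, the highest of each family, members with an unadjusted p under 0.05 at the 0.1 FPKM minimum, and the 10 largest differences under 1 FPKM without overlap. Other members were named as examples after their values were seen. Alternatives covered pseudocount, filter, scaling, each library left out, a replicate block and the handling of repeated symbols. Phc3 was matched to no symbol, and Kmt2a and Kmt2b by these names, not as Mll1 and Mll2.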

Additional observations from a re-analysis of the deposited data

How the results depend on the processing

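No patterning gene was called by limma under any of the 11 alternatives. With no filter 51 members were tested and with a minimum of 0.1 FPKM 20, against 9, and the median log2 difference then turned from -0.15 to 0.0084 and 0.050, with more low genes entering by construction. It was -0.21 with a pseudocount of 0.1, -0.20 after TPM scaling, -0.18 after quantile normalization and between -0.13 and -0.11 with each library left out, where the lone sample of a group is assumed to vary like the others. Over all genes, calls went from 149 to 4 with no filter, to 32 to 75 with each library left out, and to 341 with the replicate number as a block. The block changed no member's call. Whether same-numbered libraries form pairs is not known. Their deviations from the group means correlated at -0.052 across 11361 genes, which are not independent replicates. A single correlation over all genes cannot exclude a pairing that affects some of them. Emx2 reversed to 0.038 without control replicate 1, and Tbx6 reversed to -0.02 without control replicate 1 and to -0.074 without knockout replicate 2 (up to 0.194 with other libraries left out). The cause was not tested. With a pseudocount of 0.1 the log2 differences of Six3, Nkx2-1 and Irx2 were 1.10, 1.18 and 0.94, and with each library left out they stayed positive (0.33 to 0.70, 0.42 to 0.49 and 0.27 to 0.57). With 2 libraries a group, a value at 0 allows up to 3 fragments, and no change below that can be seen.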
